A study of Homo sapiens with 5 samples.

Results

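TFIIH is the general transcription factor that opens promoter DNA for RNA polymerase II and unwinds damaged DNA during nucleotide excision repair. Its core holds the helicase ERCC3 (XPB) with the GTF2H1, GTF2H2, GTF2H3, GTF2H4 and GTF2H5 subunits, and the helicase ERCC2 (XPD) joins this core to the CDK-activating kinase, or CAK. CAK consists of the kinase CDK7, its cyclin CCNH and the assembly factor MNAT1. It phosphorylates the tail of RNA polymerase II at promoters and, free of TFIIH, the activating loop of cell cycle kinases.

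The genes described are 9 named members of this complex: CDK7, CCNH, MNAT1, ERCC2, ERCC3, GTF2H1, GTF2H2, GTF2H3 and GTF2H4. They were chosen by their membership of the complex after CDK7 and GTF2H1 had been seen among the larger differences on these arrays, so their differences are descriptions and support nothing by themselves. Of the 9 genes, 8 had a probe set annotated to that gene alone, out of 11963 such genes on the array. GTF2H1 had 2 probe sets and the others 1, which gave 9 probe sets, each given separately. GTF2H2 was represented only by a probe set shared among 4 near-identical gene symbols (GTF2H2, GTF2H2B, GTF2H2C and GTF2H2C_2) and is given apart from the members.

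The arrays measured TF-1 cells, a human erythroleukaemia line that depends on cytokine and was kept in GM-CSF at 5 ng/mL. The cells carried a GFP-marked MSCV retrovirus, either with DbSCL, a form of the transcription factor SCL that cannot bind DNA, or with no insert (called vector). After a night without growth factor they were stimulated for 6 h, which gave 5 groups: DbSCL cells under Steel factor (SF, the ligand of c-Kit, 20 ng/mL), DbSCL cells under erythropoietin (Epo, dose not in the labels), and vector cells under SF, under Epo and under GM-CSF (5 ng/mL). Each group had 1 Affymetrix array, there was no array of unstimulated cells, and whether the transduced cells were 1 clone or a mixture is not given in the sources used here.

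With 1 array per group there was no replicate check, no test was made, and no p-value was computed. As a rough scale, the spread of a single difference was estimated from how far the DbSCL difference under SF lay from that under Epo, in 10 bins of mean signal. It was 0.12 to 0.24 log2, and 0.16 to 0.21 in the bins of the members, and it holds any real interaction of DbSCL with the cytokine. The vector GM-CSF array did not enter it, so it may be too small for differences from that array. Of all probe sets, 8.2% were past 1.5-fold in SF minus GM-CSF and 15.0% in Epo minus GM-CSF. In SF minus Epo of vector cells 1.64% were. A probe set was counted when its log2 difference was at least 1 in size (2-fold), after signals below a floor of 4.45 had been set to the floor. All 9 probe sets lay above the floor on all 5 arrays, their lowest value being 4.65. The floor is a percentile and no detection limit: 10 of 10 erythroid and progenitor markers with a probe set of their own were above it on all arrays, but so were 6 of 6 T cell markers, 1 of 3 B cell, 1 of 3 monocyte and 3 of 4 stromal and epithelial markers. CD14, CSF1R (monocytes) and EPCAM (epithelium) were below it on every array, while LYZ (monocytes), CD79A (B cells), COL1A1, COL1A2 and KRT18 were above it on every array. CSF2RA, which binds GM-CSF at the cell surface, was between 4.60 and 4.82, little above the floor.

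The arrays differed in their control readings, which are set beside the results below. The 18S ribosomal RNA controls averaged 8.32 on the DbSCL SF array, 7.99 on DbSCL Epo, 8.22 on vector SF, 7.45 on vector Epo and 9.02 on vector GM-CSF. The hybridization controls, added during the assay, averaged 10.82, 10.04, 10.29, 9.85 and 10.81 in the same order. For beta-actin the 3' minus 5' difference, which depends on RNA integrity and on the labelling reaction, was 3.33, 3.01, 1.89, 2.74 and 2.63 in that order. The vector GM-CSF array thus had the highest 18S reading and the vector Epo array the lowest, and the actin value was lowest on vector SF and highest on DbSCL SF.

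The 250 bases before the transcription start are printed for CDK7 and GTF2H1, because these members had the largest differences and because SCL, with its E protein partner, binds E-boxes (CANNTG), the contact that DbSCL lacks. The sequences are those of RefSeq on GRCh38.p14, plus strand, chr5:69234636-69234885 for CDK7 and chr11:18322317-18322566 for GTF2H1. Capitals mark any match on either strand to 7 short motifs: the E-box CANNTG and its form CATCTG, the GATA factor motif GATAA, the CCAAT box, the GC box GGGCGG, the ETS core CCGGAAG and the NRF1 core TGCGCA.
CDK7: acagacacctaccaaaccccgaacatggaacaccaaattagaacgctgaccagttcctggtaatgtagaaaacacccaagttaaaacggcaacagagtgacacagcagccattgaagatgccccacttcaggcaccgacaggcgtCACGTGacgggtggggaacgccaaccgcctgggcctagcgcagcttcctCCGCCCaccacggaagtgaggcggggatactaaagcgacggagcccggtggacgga
GTF2H1: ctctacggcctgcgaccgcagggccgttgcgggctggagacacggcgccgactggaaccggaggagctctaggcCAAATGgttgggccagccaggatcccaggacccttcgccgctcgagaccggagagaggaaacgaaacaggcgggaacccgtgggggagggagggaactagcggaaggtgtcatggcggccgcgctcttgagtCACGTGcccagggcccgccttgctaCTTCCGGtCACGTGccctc
In the CDK7 window the E-box match reads CACGTG and begins at position −105 from the start, and CCGCCC, the reverse of the GC box, at −56. RefSeq gives CDK7 another start 91 bases upstream, from which the same CACGTG begins at −14. The GTF2H1 window holds E-box matches beginning at −176, −44 and −11, and between the last pair an ETS core, in reverse, at −19. Both of its matches nearer to the start again read CACGTG, a form searched for only after these letters had been seen. Among the 9 genes CACGTG was found in 2, CDK7 and GTF2H1, and it was found in 6.49% of 27305 promoter windows of this length. The form CATCTG was found in neither printed window, and whether SCL binds any of these matches was not tested.

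Any E-box was found in 8 of 9 member windows, the exception being ERCC2, and in 62.2% of all windows. The GC box GGGCGG was found in 6 of 9 (42.3% of all), the ETS core in 4 of 9 (8.82%), CCAAT in 2 of 9 (33.0%), the NRF1 core TGCGCA in 2 of 9 (7.05%), GATAA in 1 of 9 (21.0%) and CATCTG in 1 of 9 (12.2%). GATAA was found in MNAT1 alone and CATCTG in CCNH alone. Matches to such short motifs are descriptions of the letters, and no binding was measured here.

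CDK7 was the member that differed most between cytokines. Its log2 signal was 6.86 on DbSCL SF, 6.92 on DbSCL Epo, 6.86 on vector SF, 7.52 on vector Epo and 5.54 on vector GM-CSF (211297_s_at). GM-CSF was thus the lowest array by over 1 log2 unit, vector Epo the highest, and the other 3 lay close together. In vector cells CDK7 was 1.32 higher under SF than under GM-CSF (2.50-fold) and 1.98 higher under Epo than under GM-CSF (3.95-fold). These comparisons share the GM-CSF array and are not independent. From the highest, the SF difference had rank 7 of 13861 probe sets compared and the Epo difference rank 3 of 13901. The median difference of probe sets in the same bin of mean signal was 0.06 under SF and 0.03 under Epo.

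The order of CDK7 over the arrays was the reverse of that of the 18S controls, whose difference was −0.80 log2 for vector SF minus vector GM-CSF and −1.56 for vector Epo minus vector GM-CSF. The 28S controls were also highest on vector GM-CSF (8.97) and lowest on vector Epo (8.28), but did not follow the reverse order over the other 3 arrays. The poly(A) controls, added to the RNA before labelling, ran in the same order as CDK7, at 9.89 on DbSCL SF, 10.15 on DbSCL Epo, 9.87 on vector SF, 10.16 on vector Epo and 9.73 on vector GM-CSF. The part of these readings in the CDK7 difference was not tested. CDK7 was 0.66 lower under SF than under Epo in vector cells, past the spread of 0.21 but short of 2-fold. With DbSCL, the SF signal was identical to that of vector cells when compared to 9 decimals, so the difference was 0.00. Under Epo the DbSCL array was 0.61 lower than vector (1.52-fold), and in DbSCL cells SF and Epo differed by −0.05.

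**Figure D1:**
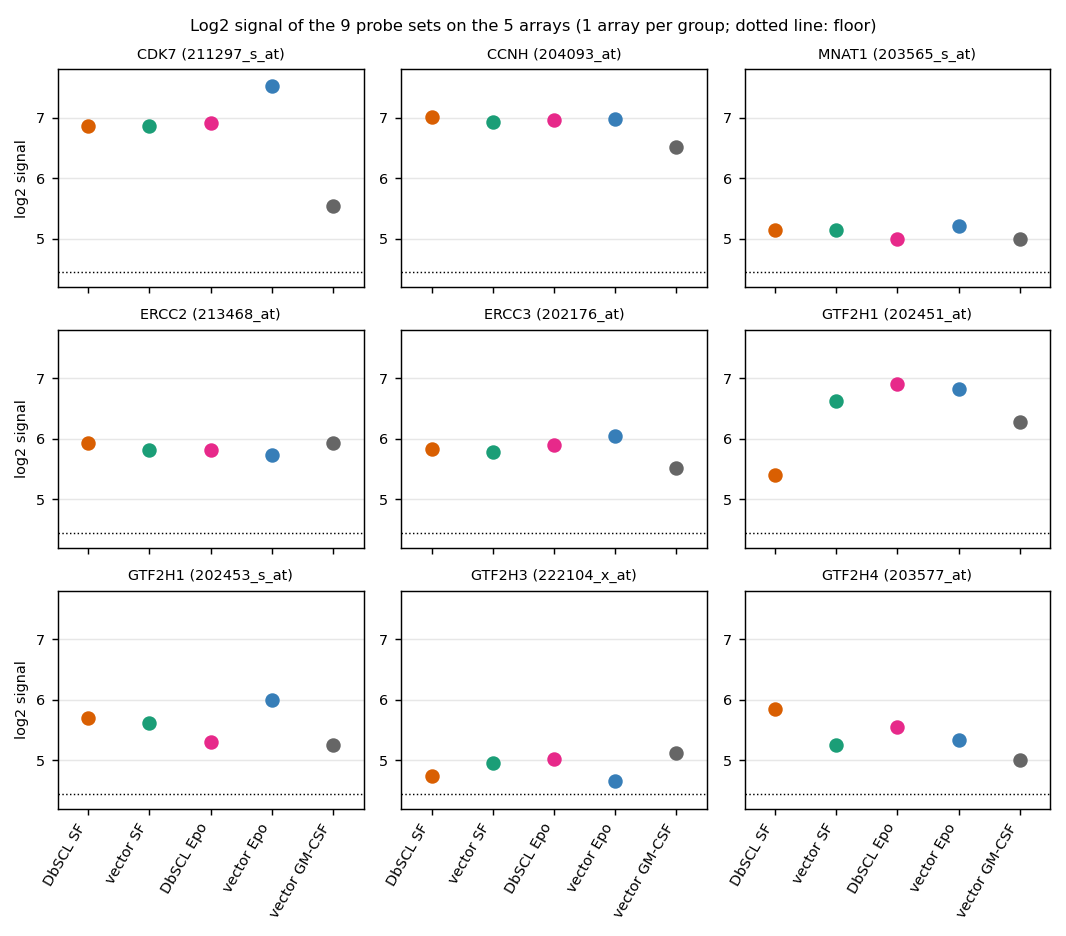
Log2 signal (y axis, the same range in every panel) of each of the 9 probe sets on the 5 arrays (x axis), 1 point per array and 1 array per group, with the floor of 4.45 as a dotted line. CDK7 was lowest on the vector GM-CSF array (5.54), and GTF2H1 by 202451_at was lowest on the DbSCL SF array (5.41).

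The partners of CDK7 in CAK spread less. CCNH, the cyclin, had signals of 7.01 on DbSCL SF, 6.96 on DbSCL Epo, 6.93 on vector SF, 6.97 on vector Epo and 6.51 on vector GM-CSF (204093_at). The 4 arrays of SF or Epo lay within 0.08 of each other, and the GM-CSF array alone stood below them. The CCNH difference was 0.42 for SF minus GM-CSF and 0.47 for Epo minus GM-CSF, where the medians of its signal bin were 0.16 and 0.17. It was 0.08 for DbSCL minus vector under SF and −0.02 under Epo, both below the spread of 0.21.

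MNAT1, which holds the kinase and cyclin together, had signals of 5.14 on DbSCL SF, 5.00 on DbSCL Epo, 5.14 on vector SF, 5.20 on vector Epo and 5.00 on vector GM-CSF (203565_s_at). Its whole range over the 5 arrays was 0.21, against a spread of 0.16 for a single difference, so no order of the arrays is read from it. Its value on DbSCL SF was again identical to that on vector SF. Identical values on at least 2 arrays were found in 3 of the 9 member probe sets (CDK7, MNAT1 and ERCC2) and in 58.4% of all probe sets, so they are a common property of this table. For CDK7, CCNH and MNAT1 the differences from GM-CSF were 1.32, 0.42 and 0.14 under SF and 1.98, 0.47 and 0.20 under Epo. Those of MNAT1 were below or near its spread of 0.16, so no direction common to the 3 CAK genes is read.

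Of the helicases, ERCC3, whose translocation along DNA opens the promoter, followed the order of CDK7 at a smaller size. Its signals were 5.83 on DbSCL SF, 5.90 on DbSCL Epo, 5.79 on vector SF, 6.05 on vector Epo and 5.53 on vector GM-CSF (202176_at). It was 0.27 higher under SF and 0.52 higher under Epo than under GM-CSF, against a spread of 0.19 that was estimated without the GM-CSF array. By size, ERCC3 ranked 5362 of 13861 probe sets under SF and 2624 of 13901 under Epo. With DbSCL it differed from vector by 0.04 under SF and −0.14 under Epo. ERCC2, the helicase needed for repair, was nearly flat at 5.93 on DbSCL SF, 5.82 on DbSCL Epo, 5.82 on vector SF, 5.74 on vector Epo and 5.94 on vector GM-CSF (213468_at). Its range of 0.20 was close to the spread of 0.19, and its highest array was the one on which CDK7, CCNH and ERCC3 were lowest.

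GTF2H1 encodes the p62 core subunit, which activators and repair factors contact, and its 2 probe sets did not give the same picture. By 202451_at its signals were 5.41 on DbSCL SF, 6.91 on DbSCL Epo, 6.63 on vector SF, 6.83 on vector Epo and 6.27 on vector GM-CSF. The DbSCL SF array was the lowest here, and the vector GM-CSF array the next above it. By 202453_s_at they were 5.70, 5.31, 5.61, 5.99 and 5.25 in the same order, with vector GM-CSF lowest and DbSCL Epo next to it.

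For cytokines in vector cells the 2 GTF2H1 probe sets were close: SF minus GM-CSF was 0.36 and 0.37, and Epo minus GM-CSF was 0.55 and 0.75. For DbSCL they parted. Under SF, DbSCL minus vector was −1.22 by 202451_at (2.34-fold lower) and 0.09 by 202453_s_at. Under Epo it was 0.08 by 202451_at and −0.69 by 202453_s_at (1.61-fold lower). In each case 1 probe set of the gene was lower with DbSCL and the other was within the spread of 0.18 to 0.21.

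Between the DbSCL arrays, SF minus Epo was −1.50 by 202451_at (2.83-fold lower), the lowest of 13679 probe sets compared, and 0.40 by 202453_s_at. The gap of 1.90 between them was the largest among the 1560 genes with exactly 2 probe sets above the floor on all arrays, whose median gap was 0.20. For DbSCL minus vector under SF the gap was 1.32, and 4 of the 1560 genes had a larger one. Under Epo it was 0.77, with 36 genes larger. In SF minus GM-CSF it was 0.01. The DbSCL SF array, on which 202451_at was low, had the highest 3' minus 5' value of beta-actin, 1.44 above that of vector SF. The DbSCL Epo array had the next highest actin value (3.01), and 202451_at was at its highest there (6.91). Where the 2 probe sets lie along the GTF2H1 transcript was not determined here, and the part of RNA integrity in the difference was not tested.

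GTF2H4, the p52 subunit that anchors and stimulates ERCC3, was highest in DbSCL cells. Its signals were 5.85 on DbSCL SF, 5.54 on DbSCL Epo, 5.24 on vector SF, 5.34 on vector Epo and 5.01 on vector GM-CSF (203577_at). Both DbSCL arrays thus lay above all 3 vector arrays, which was so for no other of the 9 probe sets. The share of all probe sets with this order is not given here, so nothing is read from it. It was 0.60 higher with DbSCL under SF (1.52-fold, rank 181 from the highest of 13661) and 0.21 higher under Epo, where the spread was 0.17. The medians of its signal bin were 0.01 and 0.00.

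GTF2H3, the p34 subunit, ran the other way to most members. Its signals were 4.74 on DbSCL SF, 5.02 on DbSCL Epo, 4.96 on vector SF, 4.65 on vector Epo and 5.12 on vector GM-CSF (222104_x_at), all near the floor. It was 0.16 lower under SF and 0.47 lower under Epo than under GM-CSF, where the median of its signal bin was −0.08 and −0.10. With DbSCL it was 0.21 lower than vector under SF and 0.37 higher under Epo. The suffix of this probe set marks probes that can also bind other transcripts.

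**Figure D2:**
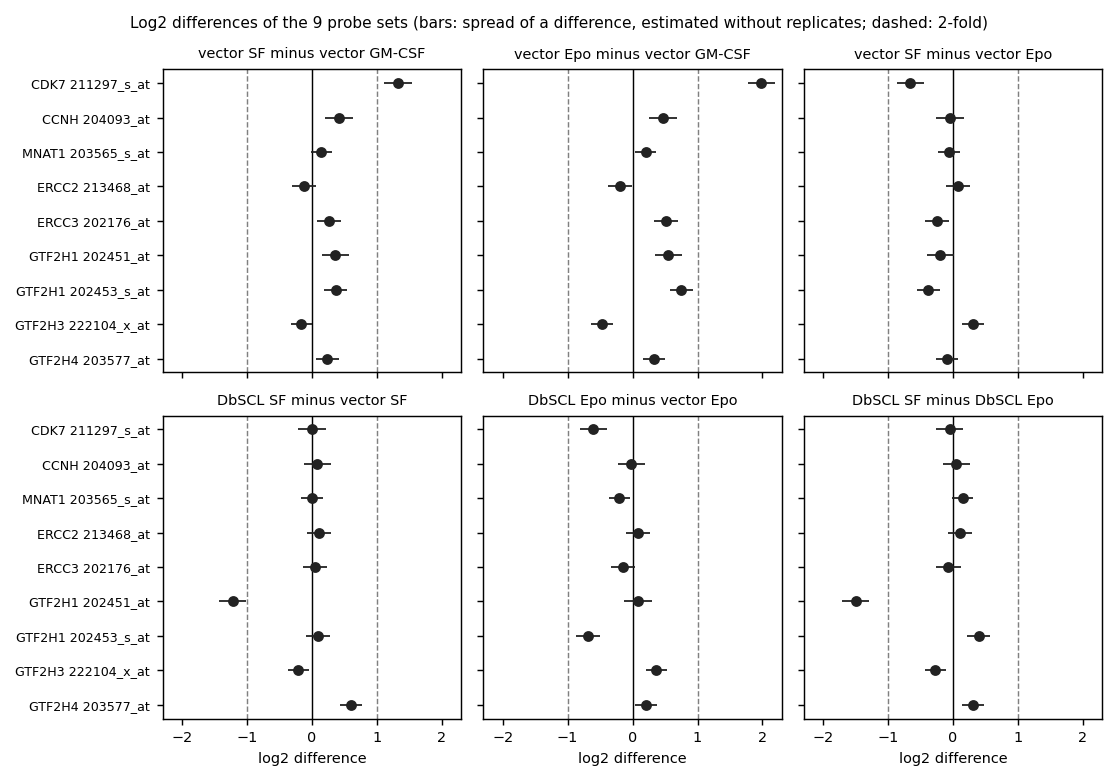
Log2 difference (x axis) of each of the 9 probe sets (rows) in 6 comparisons of single arrays, with bars for the spread of a difference as estimated without replicates and dashed lines at 2-fold. The vector GM-CSF array did not enter that spread. CDK7 lay past 2-fold in both comparisons with GM-CSF (1.32 and 1.98), and GTF2H1 by 202451_at in both that involve the DbSCL SF array (−1.22 and −1.50).

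The remaining TFIIH subunits on the array were not among the members. GTF2H5, the small subunit that stabilises the core, had signals of 6.21 on DbSCL SF, 6.82 on DbSCL Epo, 7.27 on vector SF, 7.44 on vector Epo and 6.27 on vector GM-CSF (213357_at). Vector cells under SF and Epo were the 2 highest arrays, and DbSCL SF was the lowest. GTF2H5 was 0.997 higher under SF than under GM-CSF, just short of 2-fold, and 1.16 higher under Epo. With DbSCL it was 1.06 lower than vector under SF and 0.61 lower under Epo. The shared probe set of GTF2H2 and its copies was flat, between 5.54 on DbSCL SF and 5.77 on vector Epo, and 3 of its 5 values were identical. A probe set annotated to GTF2H2B alone was below the floor on every array.

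Read by comparison, 1 of 9 member probe sets (CDK7) was past 2-fold in SF minus GM-CSF, where 0.700% of 13861 probe sets were past it in either direction. In Epo minus GM-CSF it was again 1 of 9 (CDK7), where 3.53% of 13901 were. In SF minus Epo of vector cells it was 0 of 9, where 0.0448% were. For DbSCL minus vector it was 1 of 9 under SF (GTF2H1 by 202451_at), where 0.461% were, and 0 of 9 under Epo, where 0.387% were. In SF minus Epo of DbSCL cells it was 1 of 9, the same GTF2H1 probe set, where 0.256% were. Since CDK7 and GTF2H1 brought the complex into view, nothing is read from these counts.

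By sign, 7 of 9 member probe sets were above 0 in SF minus GM-CSF and in Epo minus GM-CSF, those of CDK7, CCNH, MNAT1, ERCC3, GTF2H1 and GTF2H4, while ERCC2 and GTF2H3 were below 0 in both. Among all probe sets 45.4% and 43.6% were above 0. The member medians were 0.27 and 0.47, and the median of all probe sets was 0.00 in both. In SF minus Epo of vector cells 2 of 9 were above 0 (ERCC2 and GTF2H3), where 40.6% of all were, with a member median of −0.09. On 5 of 9 member probe sets the vector GM-CSF array was the lowest of the 5, as it was on 29.6% of the 12566 probe sets above the floor on all arrays. Vector Epo was the highest array on 4 of 9, and on 25.1% of all.

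For DbSCL the signs were mixed. Under SF 5 of 9 member probe sets were above 0, 2 below and 2 at 0 (46.2% of all were above 0), with a median of 0.04, which was −0.01 after centring each array on its median. Under Epo 4 of 9 were above 0 (42.1% of all), with a median of −0.02, which was 0.03 after quantile normalization. In SF minus Epo of DbSCL cells 5 of 9 were above 0 (46.9% of all), with a median of 0.05. The complex as a whole thus had no common direction with DbSCL.

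**Figure D3:**
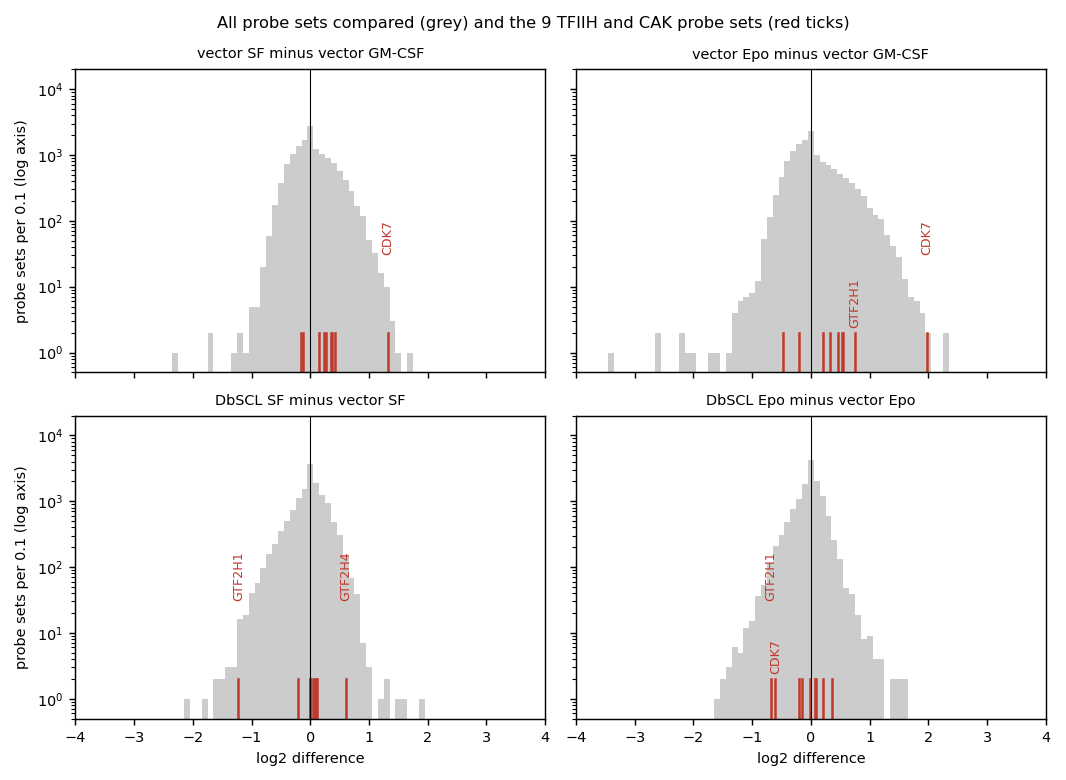
Number of probe sets (y axis, log scale) by log2 difference (x axis, bins of 0.1) for all probe sets compared (grey), with red ticks for the 9 member probe sets, in 4 of the comparisons. Ticks at or past a size of 0.6 carry their gene name. CDK7 at 1.98 lay in the right tail of Epo minus GM-CSF, and GTF2H1 at −1.22 in the left tail of DbSCL minus vector under SF.

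**Figure D4:**
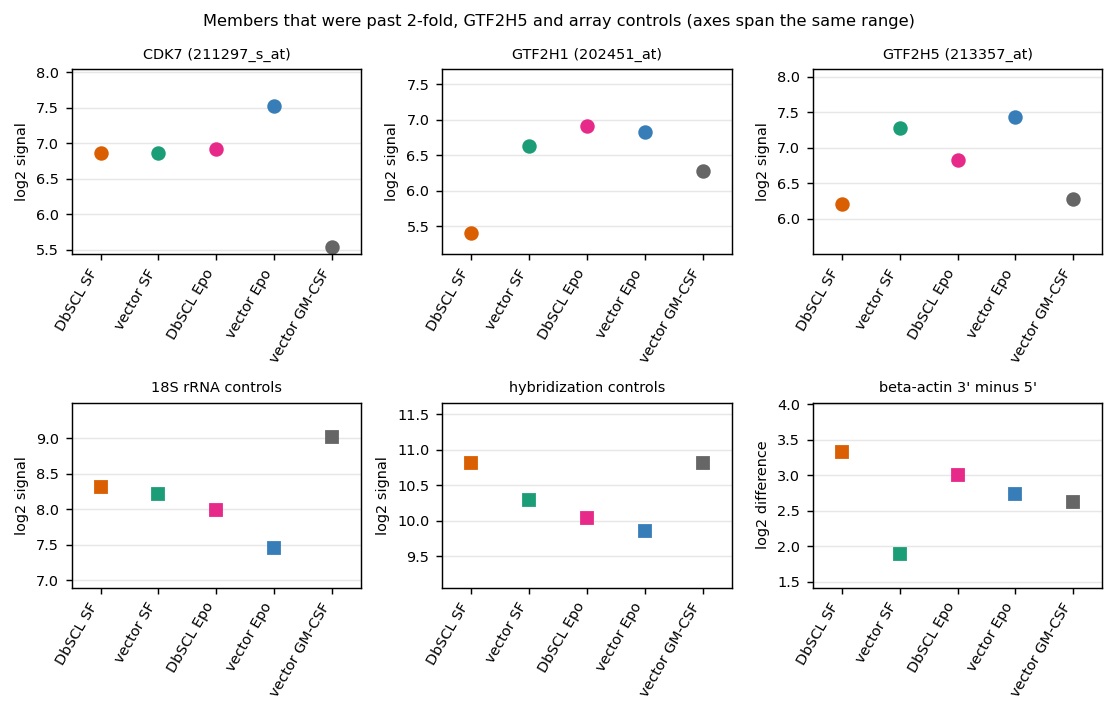
Log2 signal (y axis, an equal span in every panel) of CDK7, GTF2H1 by 202451_at and GTF2H5 (top row), and below them the mean of the 18S controls, the mean of the hybridization controls and the 3' minus 5' difference of beta-actin, on the 5 arrays (x axis, 1 array per group). The vector GM-CSF array had the lowest CDK7 (5.54) and the highest 18S (9.02), and the DbSCL SF array had the lowest GTF2H1 (5.41) and GTF2H5 (6.21) and the highest actin value (3.33). The DbSCL Epo array had the next highest actin value (3.01) and the highest GTF2H1 (6.91).

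Genes that work with TFIIH were compared from lists of general transcription factors, RNA polymerase II subunits, nucleotide excision repair, transcriptional kinases and elongation factors, and cell cycle kinases and cyclins, with GTF2H5 as a remaining TFIIH gene. The probe set with the highest mean stood for each gene, and 67 genes were compared. In Epo minus GM-CSF 6 of 67 were past 2-fold, where 3.58% of 8581 genes were, and all 6 were higher under Epo. After quantile normalization it was 3 of 67 (TAF7, CDK19 and GTF2H5), where 2.37% of 8535 genes were, and GTF2B, RPA1 and CCNB1 were no longer past 2-fold. GTF2B, which positions the polymerase at the start site, was 1.23 higher, with signals of 7.72 on DbSCL SF, 7.84 on DbSCL Epo, 8.0 on vector SF, 8.51 on vector Epo and 7.29 on vector GM-CSF. The order of the cytokines in vector cells was thus that of CDK7. TAF7, a TFIID subunit, was 1.15 higher, CCNB1, the mitotic cyclin whose partner CDK1 is activated by CAK, 1.10, and GTF2H5 1.16.

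RPA1, the large subunit of the single-strand binding protein of repair and replication, was 1.05 higher by its brighter probe set and 1.89 by the other. CDK19, a Mediator kinase, was 1.09 higher by its brightest probe set, while its other 2 gave −0.10 and 0.04. POLR2B, the second largest polymerase subunit, lay just short (0.998 higher, at 10.44 under Epo against 9.44 under GM-CSF). The list medians in Epo minus GM-CSF were 0.35 for 15 general transcription factors, 0.05 for 12 polymerase subunits, 0.11 for 13 repair genes, 0.01 for 16 transcriptional kinases and elongation factors and 0.32 for 10 cell cycle kinases and cyclins, against 0.00 for all genes.

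In SF minus GM-CSF 0 of the 67 genes were past 2-fold, where 0.596% of 8553 genes were. By the probe sets that stood for the genes, the largest were GTF2H5 (0.997) and CDK19 (0.93). The less bright probe set of RPA1 gave 1.15, past 2-fold, and the less bright ones of CDK19 gave −0.04 and −0.01. In DbSCL minus vector under SF it was 1 of 67, GTF2H5, where 0.355% of 8450 genes were, and under Epo it was 0 of 67, where 0.371% of 8359 were. In SF minus Epo it was 0 of 67 in vector cells and in DbSCL cells, where 0.036% of 8312 and 0.224% of 8472 genes were.

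**Figure D5:**
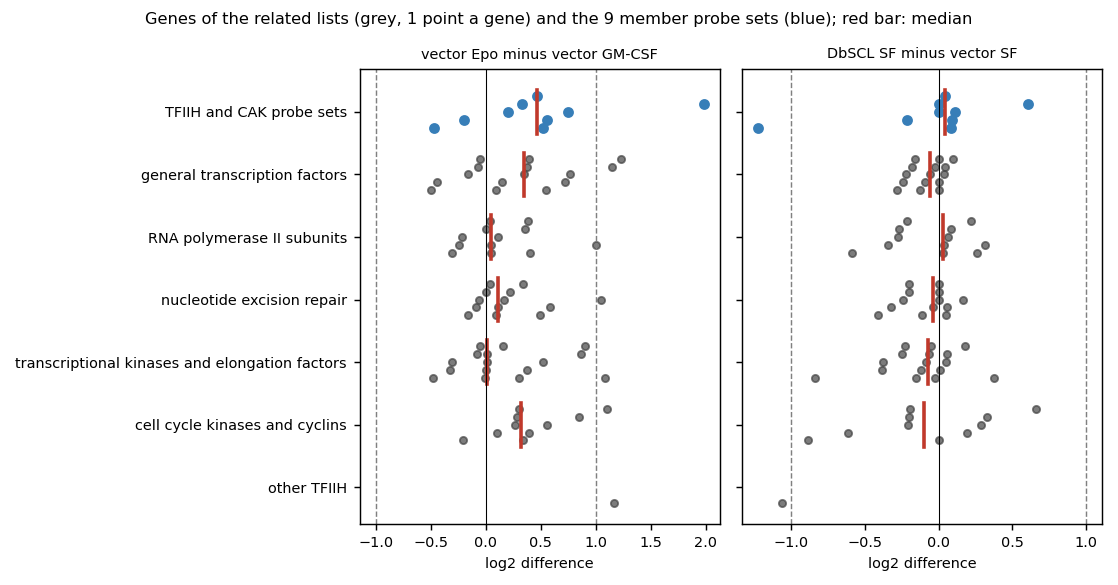
Log2 difference (x axis) of the genes of each related list (grey, 1 point per gene) and of the 9 member probe sets (blue), with red bars for medians and dashed lines at 2-fold, for Epo minus GM-CSF in vector cells (left) and DbSCL minus vector under SF (right). The TFIIH and CAK probe sets spanned −0.47 to 1.98 on the left and −1.22 to 0.60 on the right.

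The probe sets whose 5 values lay nearest to those of CDK7, after the mean of each was subtracted, were found among 11037 probe sets of other genes. Over 5 arrays they were those of DDX3X, an RNA helicase (Euclidean distance 0.17 log2), RPA1 (0.28), EIF2AK2, a kinase activated by double-stranded RNA (0.32), COX11, an assembly factor of cytochrome oxidase (0.35), and RO60, an RNA-binding protein (0.38). DDX3X had signals of 5.60 on DbSCL SF, 5.77 on DbSCL Epo, 5.83 on vector SF, 6.37 on vector Epo and 4.47 on vector GM-CSF. Other probe sets of these 5 genes lay farther away, from 0.75 for the nearest of 3 of DDX3X to 1.89 for that of EIF2AK2.

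For GTF2H1 by 202451_at the nearest were MSMO1, a sterol synthesis enzyme (0.24), STIL, a centriole assembly protein (0.28), KLHDC10 (0.33), DENR, a translation factor (0.35), and BCL10, a signalling adaptor (0.37). MSMO1 had signals of 4.91 on DbSCL SF, 6.12 on DbSCL Epo, 6.00 on vector SF, 6.10 on vector Epo and 5.71 on vector GM-CSF, and as for GTF2H1 its DbSCL SF array stood apart below the rest. Of these 5 genes KLHDC10 alone had other probe sets above the floor on all arrays, at distances of 1.18 and 1.21. With 5 arrays, such nearness describes these arrays alone.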

How the data were processed

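Per the labels' protocols, total RNA of TF-1 cells was column-purified, biotin-labelled with the array maker's small-sample procedure and read on oligonucleotide arrays. In the deposited file each probe set has a log2 value for every array, which the authors had already summarised. The summary method, its software and any normalization between arrays are not given in the sources used here. That the scale is log2 was read from the values, which run from 2.08 to 13.77 with column medians of 4.90 to 4.99. Values were used as deposited.

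The platform's annotation supplied the symbols and gave 1 symbol to 19065 of 22215 non-control probe sets. The members and lists were chosen with earlier results of these data known. As the floor, the 40th percentile over non-control probe sets was taken, and a probe set was compared when at least 1 of the 2 arrays was above it. The named genes were all member probe sets, list genes past 2-fold in any comparison and the gene with the largest difference in each list. The 5 nearest profiles of members whose range was at least 1 log2 were named too. CCND2 and CCNE1 were named besides, after their values were seen. The counting code was run on simulated data with added differences larger than 2-fold, which checks the code and not the results. Alternatives were quantile, cyclic loess and median normalization, no floor, a floor at the 60th percentile, a 1.5-fold threshold and, for lists, the mean of all probe sets of a gene. The work used Python 3.11.15, pandas 2.3.3, R 4.3.3 and limma 3.58.1. For arrays, their number limits the precision, here 1 per group.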

Additional observations from a re-analysis of the deposited data

Results flagged for a closer look

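For 5 member probe sets the DbSCL difference pointed one way under SF and the other way under Epo, on single arrays, and this contrast was not tested. The share of all probe sets that did so is not given here, so nothing is read from the count. GTF2H1 by 202451_at gave −1.22 under SF and 0.08 under Epo, −1.31 apart, and by 202453_s_at 0.09 and −0.69, 0.78 apart. GTF2H3 gave −0.21 and 0.37, −0.58 apart, and here alone both sides were larger than the spread of a difference. ERCC3 gave 0.04 and −0.14, 0.18 apart, and CCNH 0.08 and −0.02, 0.10 apart, with at least 1 side below the spread.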

How the results depend on the processing

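With 1 array per group, leaving out a replicate was not possible, and no paired analysis was possible because the groups hold no replicates. The counts of member probe sets past 2-fold were the same under quantile, cyclic loess and median normalization, without a floor and with the floor at the 60th percentile. At 1.5-fold in place of 2-fold the count was 2 in Epo minus GM-CSF (15.0% of all probe sets were past it), 1 in SF minus Epo of vector cells (1.64%), 2 in DbSCL minus vector under SF (5.39%) and 2 under Epo (3.53%). It did not move in SF minus GM-CSF (1, 8.2%) or in SF minus Epo of DbSCL cells (1, 3.79%). Under quantile normalization 3 list genes in place of 6 were past 2-fold in Epo minus GM-CSF, where 2.37% of all genes were. The 54 member differences shifted by at most 0.13 log2 under any of the 3 normalizations, each by less than its spread. With the higher floor 39 of the 54 could be compared, and 3 shifted by more than the spread because 1 of their arrays was raised to that floor: GTF2H1 by 202453_s_at gave 0.19 in SF minus GM-CSF and 0.57 in Epo minus GM-CSF, and GTF2H4 gave 0.42 for DbSCL minus vector under SF. No difference past 2-fold changed sign under these alternatives. No alternative replaces the missing replicates or separates an array's control readings from its group.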

Other observations

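Among the 67 listed genes that work with TFIIH, 4 besides GTF2H5 were lower with DbSCL under SF by at least 1.5-fold, short of 2-fold. This limit was set after their values were seen. CCNE1, a cyclin of the same lists, went the other way and was 0.66 higher. In this comparison 5.39% of 13661 probe sets were past 1.5-fold in either direction. The share of all genes that were lower by this much is not given here, so nothing is read from the count. CCNA2, the cyclin of S phase, gave −0.89 by its brighter probe set and −0.27 by the other, with signals by the brighter of 6.25 on DbSCL SF, 7.03 on DbSCL Epo, 7.14 on vector SF, 7.08 on vector Epo and 6.69 on vector GM-CSF. CDK8, a Mediator kinase, gave −0.84, with signals of 4.87 on DbSCL SF, 5.54 on DbSCL Epo, 5.71 on vector SF, 5.71 on vector Epo and 4.81 on vector GM-CSF. CCND2, a cyclin of G1 phase, gave −0.62 by the brightest of its 3 probe sets, and the others are not given here. By that probe set its signals were 6.46 on DbSCL SF, 6.78 on DbSCL Epo, 7.07 on vector SF, 6.87 on vector Epo and 6.53 on vector GM-CSF. As for GTF2H5, the DbSCL SF and vector GM-CSF arrays were the lowest 2 for these 3 genes, and these were also the arrays with the highest hybridization controls, 10.82 and 10.81. The part of this in the differences was not tested. POLR2E, a subunit shared by the nuclear RNA polymerases, gave −0.59 and −0.85 by its 2 probe sets, and by the brighter its signals were 7.03 on DbSCL SF, 7.39 on DbSCL Epo, 7.62 on vector SF, 7.08 on vector Epo and 7.30 on vector GM-CSF. Under Epo, DbSCL minus vector was −0.05 for CCNA2, −0.17 for CDK8, −0.09 for CCND2 and 0.31 for POLR2E. Other listed genes were past 1.5-fold in that comparison, as were 3.53% of 13448 probe sets. GTF2B (−0.67), TAF7 (−0.67), POLR2B (−0.64) and GTF2H5 (−0.61) were lower there, and NELFB (0.74) and TAF6 (0.66) were higher. No lowering particular to SF is read from these genes.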
